A study of Arabidopsis thaliana with 12 samples.

Results

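The sucrose response of WT seedlings was read from 6 of the 12 libraries of the series, which were chosen by genotype and medium alone: the 3 libraries of Arabidopsis seedlings (Columbia-0) grown with 1% sucrose (WT-Suc) and the 3 of the same genotype grown without added sucrose (WT), both on 1/2 MS media. The labels give an age of 5 days for both groups, and the paper's methods day 4 post-germination, so by the labels the groups differed in medium alone. The other 6 libraries hold the *tmt2* mutant, which lacks a vacuolar sugar transporter, with sucrose at 5 days (*tmt2-L-Suc*) and without sucrose at 7 days (*tmt2-S*) by the labels. The paper names *tmt2* seedlings by their look, *tmt2-L* with normal true leaves and *tmt2-S* with none, so the mutant groups also differ by this choice. RNA of the above-ground tissue was sequenced in 3 replicates per group. The paper speaks of biological replicates for expression values, but whether these were separate plates, seed lots or harvests is not given in the sources used here, and the p-values measure the spread between these libraries. The comparison asks which transcripts of a WT seedling differ when sugar is supplied from outside.

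Sugars feed plant growth and also act as signals. Classical sugar-regulated genes are the dark-inducible genes, which are shut off when sugar is plentiful, the genes of starch and anthocyanin synthesis, which are switched on by sugar, and the photosynthesis genes, which sugar can repress. A separate layer of genes responds within minutes to wounding, cold, touch or the perception of microbes. Calcium enters the cell, an oxidative burst follows, transcription factors of the AP2/ERF, WRKY and zinc-finger families are transcribed, and jasmonate is made. Lists of both kinds of genes were set against the data.

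The 6 libraries held between 20187961 and 20807052 expected counts. By Euclidean distance over log2 CPM (counts scaled to library size), WT-Suc replicate 1 lay closer to WT replicate 3 (62.9) and WT replicate 2 (70.6) than to WT-Suc replicates 2 and 3 (81.0 and 85.7), which lay 56.3 apart. A second library stood apart by its seed transcripts. The 6 seed storage and oil body genes of the marker list summed to 28, 6210 and 191 counts in WT-Suc replicates 1, 2 and 3, against 163, 54 and 81 counts in WT replicates 1, 2 and 3. *CRA1*, a 12S globulin, had 12, 1900 and 167 counts in WT-Suc and 139, 46 and 51 counts in WT. None of the 3 seed genes tested passed (smallest adjusted p = 0.0849), and the part of seed RNA in the differences below was not tested. The above-ground tissue named in the paper's methods was borne out by the markers: 4 green tissue genes summed to between 84468 and 112397 FPKM in WT-Suc and between 90157 and 95614 FPKM in WT. The 8 root genes summed to at most 3.42 FPKM in WT-Suc and 6.48 FPKM in WT, and *COBL9* and *MRN1* had at most 3 counts in every library. The phloem, stomatal lineage and meristem lists had 0 of 2, 4 and 3 tested members called, where 1.25% of all genes were called lower and 0.222% higher. Lists this short are likely to hold no call. Results with and without each library are given below.

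In WT-Suc/WT, 182 of 18506 genes tested were DEGs, defined as |log2FC| ≥ 1.2 with an adjusted p ≤ 0.05 (edgeR's quasi-likelihood test, Benjamini-Hochberg adjustment). Of these, 167 were lower in WT-Suc, which is 0.902% of the genes tested, and 15 were higher, which is 0.0811%. The fall of a DEG was at most 4.48 on the log2 scale, with a median log2FC of -1.69, and 49 genes fell to a log2FC of -2 or below. The standard errors of the fallen DEGs lay between 0.17 and 0.88. Without the limit on fold, 231 genes (1.25%) were called lower and 41 (0.222%) higher. The counts were scaled so that log ratios centre near 0 (median log2FC of all genes 0.02, with 48.2% below 0), so a shift of the whole transcriptome could not be seen. An unadjusted p of at most 0.05 was found for 2165 lower and 1447 higher genes. The smallest adjusted p was 0.0134.

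**Figure D1:**
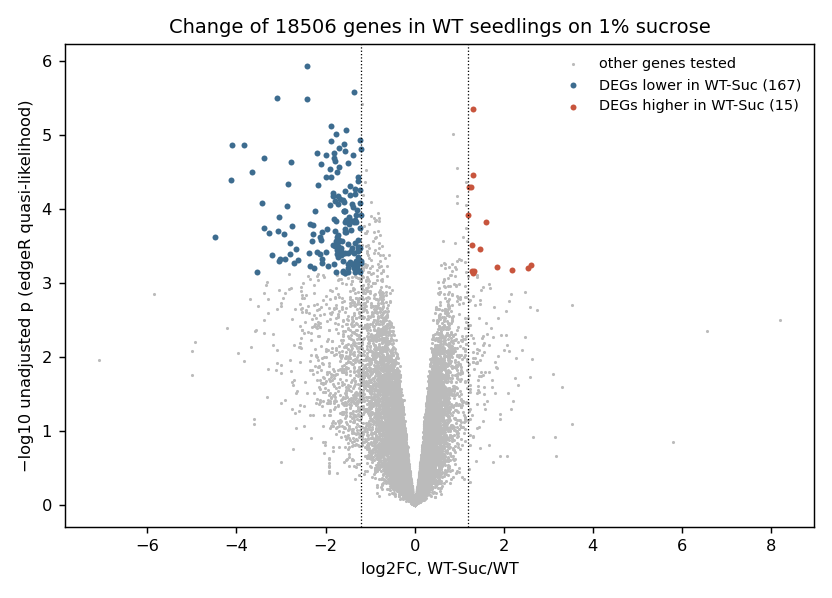
Each point is 1 of the 18506 genes tested, with its log2FC (WT-Suc/WT) on the x axis and the −log10 of its unadjusted p (edgeR's quasi-likelihood test) on the y axis, and the dotted lines mark |log2FC| of 1.2. The 167 lower DEGs in blue reach -4.48, while the 15 higher DEGs in red reach 2.62.

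All 167 fallen DEGs had 3 WT-Suc libraries below all 3 WT libraries, and all 15 risen DEGs had them above. Of all genes tested, 13.0% were apart in the first way and 11.3% in the second. The separation was often narrow. The median gap between the closest WT-Suc and WT library was -0.82 on the log2 CPM scale over the fallen DEGs, and 55 of them kept a gap of more than 1. Relative to the mean of the WT libraries, the median fallen DEG was at -1.29, -2.0 and -1.69 (log2 CPM) in WT-Suc replicates 1, 2 and 3, against 0.30, -0.03 and -0.28 in WT replicates 1, 2 and 3. WT-Suc replicate 1 was the highest of its group for 118 of the 167 genes and WT replicate 3 the lowest of its group for 106. These libraries are the pair that lay closest across the groups. Among the 15 risen DEGs, the medians were 1.27, 1.6 and 1.58 in WT-Suc and -0.19, -0.09 and 0.16 in WT.

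**Figure D2:**
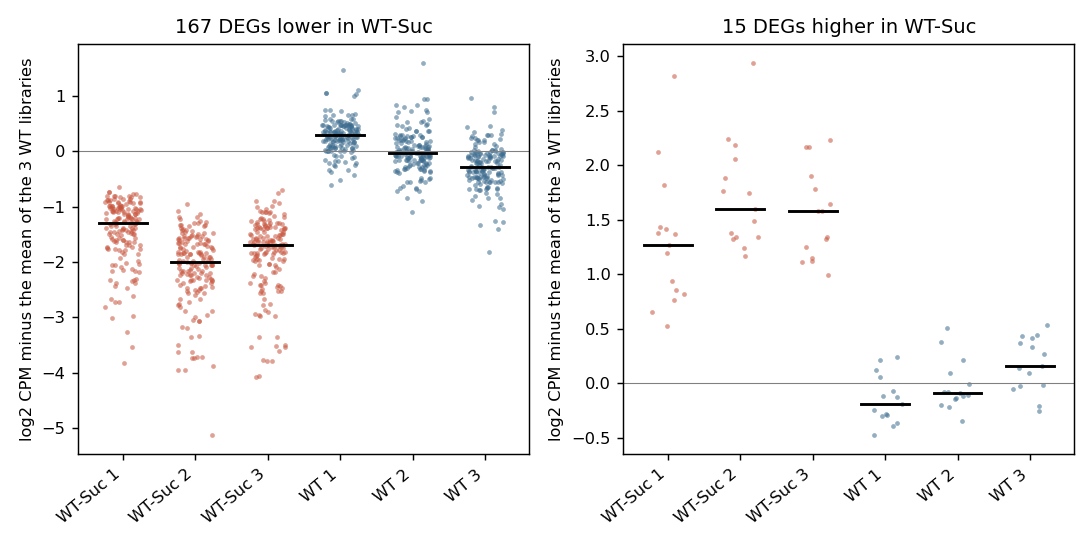
Log2 CPM of each DEG minus its mean over the 3 WT libraries (y axis), with 1 point per gene, in WT-Suc replicates 1 to 3 (red) and WT replicates 1 to 3 (blue) on the x axis, for the 167 lower DEGs (left) and the 15 higher DEGs (right). Black bars are medians, and the lower DEGs sit at -1.29, -2.0 and -1.69 in WT-Suc and 0.30, -0.03 and -0.28 in WT.

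The fallen DEGs were grouped with 22 functional lists of named genes. Over the 9 lists of rapid stress and defence genes (AP2/ERF, WRKY, zinc-finger and MYB, and NAC factors, calcium, jasmonate synthesis, jasmonate signalling, early pattern response, salicylic acid), 180 distinct genes were tested, 36 were called lower (20%, against 1.25% of all genes) and 0 higher (against 0.222%). Of the 180, 171 had a log2FC below 0, with a median of -0.92. These lists were drawn up with earlier results of the same libraries known, so their counts are a description. Of the 167 fallen DEGs, 37 belonged to any of the 22 lists and 130 to none.

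**Figure D3:**
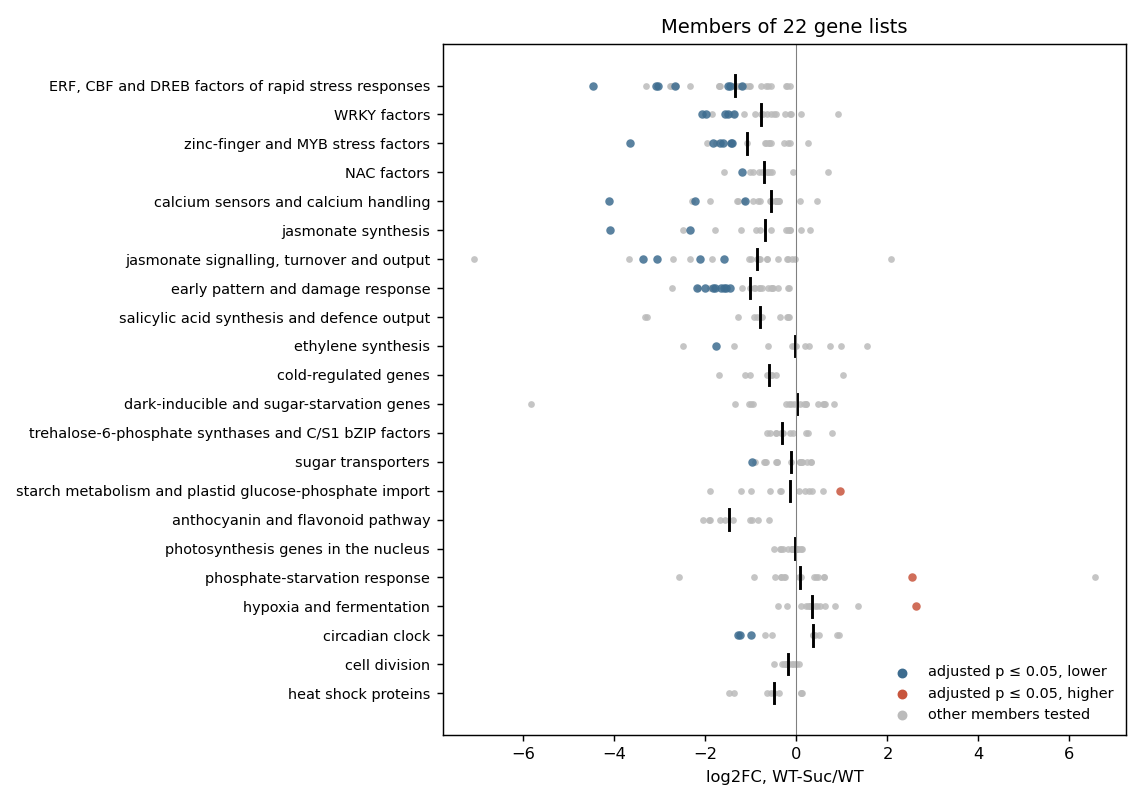
Log2FC (WT-Suc/WT, x axis) of the tested members of each of 22 gene lists (y axis), with the median as a black bar, members with an adjusted p ≤ 0.05 in blue (lower) or red (higher), and other members in grey. The AP2/ERF list has a median of -1.34, with all 31 members below 0, and the photosynthesis list a median of -0.04 with no member called.

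The AP2/ERF, CBF and DREB factors carry many of the fastest transcriptional responses of the plant to cold, wounding and oxidative stress. All 31 members tested of this list of stress-related factors had a log2FC below 0 (median -1.34), 7 were called lower and 0 higher. The wider family moved less. By words of their annotation, 5 of 69 tested AP2/ERF genes were fallen DEGs (7.25%, against 0.902% of all genes). Of the 69, 52 had a log2FC below 0, and their median was -0.53. *RRTF1* (AT4G34410, chromosome 4 from 16451876 to 16453260 of TAIR10.1), an amplifier of reactive oxygen signals, had 5.83, 1.78 and 2.6 FPKM in WT-Suc replicates 1 to 3, against 33.2, 25.2 and 22.3 FPKM in WT replicates 1 to 3. The groups were well apart, at 3.40 ± 2.14 FPKM in WT-Suc and 26.9 ± 5.62 FPKM in WT (SD, n = 3 each), with a log2FC of -3.09 ± 0.39 (SE, adjusted p = 0.0134). The largest fall of any DEG was that of AT1G22810, an AP2-type DNA-binding protein, with 6, 2 and 1 counts in WT-Suc and 35, 142 and 19 counts in WT (log2FC -4.48 ± 0.88, adjusted p = 0.0345). Its WT libraries differed more among themselves than those of *RRTF1*. *DDF1*, a factor of dwarfing and stress tolerance, had 1.70, 0.46 and 0.85 FPKM in WT-Suc and 8.79, 10.3 and 4.05 FPKM in WT (log2FC -3.04 ± 0.56, adjusted p = 0.0287). AT1G19210, of the same class, had 1.42, 0.32 and 1.73 FPKM in WT-Suc and 12, 3.20 and 5.53 FPKM in WT. Smaller falls were those of *RAP2.6L* (log2FC -1.5), the repressor *ERF11* (-1.46) and *ERF5* (-1.19, below the DEG limit). The cold regulators *CBF1*, *CBF2* and *CBF3* had log2FC values of -1.69, -1.34 and -2.34 and did not pass, with adjusted p values of 0.0756, 0.0723 and 0.156. The wound-responsive *ORA47* (log2FC -2.78, adjusted p = 0.06) and *RAP2.6* (log2FC -3.31, adjusted p = 0.0556) came close to the threshold.

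WRKY factors bind W-boxes in the promoters of defence genes. Of 21 tested list members, 5 were called lower, 0 higher, and the median log2FC was -0.78. Among all 45 tested WRKY factors by annotation, 6 were fallen DEGs (13.3%, against 0.902% of all genes). Of the 45, 34 had a log2FC below 0, and their median was -0.49. *WRKY40*, a regulator of defence and of abscisic acid responses, had 28.4, 21.2 and 40.5 FPKM in WT-Suc, against 96.0, 84.9 and 72.5 FPKM in WT (log2FC -1.57 ± 0.27, adjusted p = 0.0212). *WRKY33*, which is needed for camalexin synthesis and resistance to necrotrophic fungi, had 21.7, 19.0 and 42.2 FPKM in WT-Suc and 73.0, 76.5 and 53.4 FPKM in WT (log2FC -1.37 ± 0.30, adjusted p = 0.0471). For both genes WT-Suc replicate 3 was the highest of its group. *WRKY45*, *WRKY46* and *WRKY48* fell as well, with log2FC values of -1.98, -2.07 and -1.5, and outside the list *WRKY72*, which acts in basal immunity, fell at -2.80. Not all WRKY factors moved: *WRKY15* and *WRKY25* had log2FC values of -0.14 and 0.10.

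Among the zinc-finger and MYB stress factors, 6 of 19 tested members were called lower and 0 higher (median log2FC -1.09). Zinc-finger factors as a group did not share this fall. By words of annotation, 4 of 49 tested C2H2 or salt-inducible zinc-finger genes were fallen DEGs (8.16%, against 0.902% of all genes). Of the 49, 24 had a log2FC below 0, and their median was 0.02. The EAR-motif repressor *ZAT10* had 1038, 493 and 612 counts in WT-Suc, against 2423, 1821 and 2229 counts in WT (log2FC -1.69 ± 0.26, adjusted p = 0.0169). *ZAT6*, *ZAT12*, *AZF2* and *SZF1*, which respond to cold, oxidative and salt stress, fell with log2FC values between -1.83 and -1.41. *MYB15* (chromosome 3 from 8309209 to 8310910), a factor of cold signalling and of lignin-based defence, had 0.55, 0.17 and 0.25 FPKM in WT-Suc, against 5.19, 4.15 and 2.39 FPKM in WT, the largest fall of this group (log2FC -3.66 ± 0.58, adjusted p = 0.0173). In contrast, *AZF1* and *AZF3*, relatives of *AZF2*, had log2FC values of -0.18 and 0.26. Of 12 NAC factors tested only *NAC062*, a membrane-bound factor of cold and endoplasmic reticulum stress, was called (log2FC -1.2 ± 0.18, adjusted p = 0.0153). Another NAC factor, *TIP*, which interacts with a viral coat protein and was not on the list, had 16.7, 12.2 and 14.7 FPKM in WT-Suc and 39.5, 36.2 and 30.3 FPKM in WT, with 1 of the smallest p values of all genes (log2FC -1.37 ± 0.17, adjusted p = 0.0134). The heat shock factor *HSFC1* had 5.97, 3.57 and 4.93 FPKM in WT-Suc and 18.3, 16.8 and 15.1 FPKM in WT (log2FC -1.88 ± 0.26, adjusted p = 0.0153). Of the heat shock protein list, 0 of 9 tested members passed, where 1.25% of all genes were called lower and 0.222% higher. Of the 9, 6 had a log2FC below 0 (median -0.49).

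**Figure D4:**
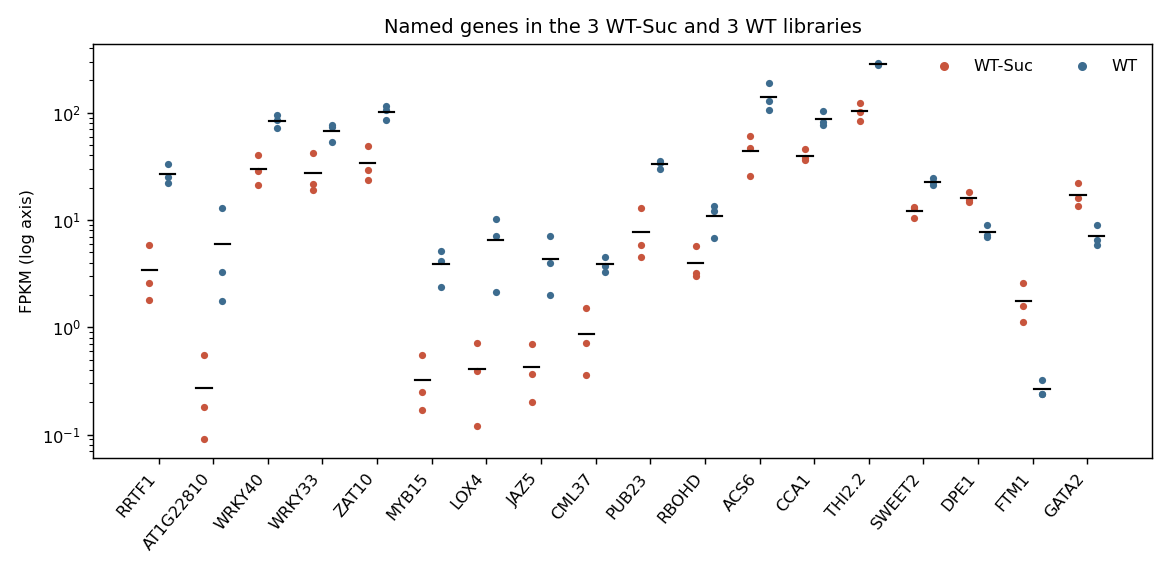
FPKM (log axis, y) of 18 named genes (x) in the 3 WT-Suc libraries (red) and the 3 WT libraries (blue), with means as black bars. *RRTF1* lies between 1.78 and 5.83 FPKM in WT-Suc and between 22.3 and 33.2 FPKM in WT, while *DPE1*, *FTM1* and *GATA2* are higher in WT-Suc.

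Calcium sensors decode the calcium rise that follows wounding, touch or microbe perception. Of 25 list members tested, 3 were called lower and 0 higher (median log2FC -0.57, and -0.87 without WT-Suc replicate 1). The EF-hand protein AT3G01830 had 3, 1 and 4 counts in WT-Suc and 49, 64 and 24 counts in WT (log2FC -4.12 ± 0.67, adjusted p = 0.0187). *CML37*, a calmodulin-like sensor of wounding and drought, had 0.71, 0.36 and 1.51 FPKM in WT-Suc and 3.76, 4.52 and 3.26 FPKM in WT (log2FC -2.23 ± 0.40, adjusted p = 0.0261). The calcium-dependent kinase *CPK32* was called at a smaller change (log2FC -1.12 ± 0.18). Some calcium genes outside the list, named after their values were seen, were fallen DEGs too. They were the calmodulin-binding AT2G26190 (log2FC -1.22) and *CAMBP25* (-1.46), the calcium pump *ACA1* (AT1G27770, -1.45) and *CIPK9* (-1.21), a kinase of potassium nutrition. By words of annotation, 4 of 93 tested calmodulin, calmodulin-binding and EF-hand genes were fallen DEGs (4.3%, against 0.902% of all genes). Of the 93, 59 had a log2FC below 0, and their median was only -0.16. The touch genes *TCH2* and *TCH3* did not pass, with log2FC values of -1.15 and -0.41.

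Jasmonate is made from linolenic acid by 13-lipoxygenases and further enzymes of the plastid and peroxisome, and its signal is held back by the JAZ repressors. *LOX4* (AT1G72520, chromosome 1 from 27308513 to 27312756), a 13-lipoxygenase, had 0.39, 0.12 and 0.71 FPKM in WT-Suc, against 7.12, 10.2 and 2.13 FPKM in WT (log2FC -4.09 ± 0.60, adjusted p = 0.0153). Its relative *LOX3* had 3.57, 2.09 and 2.11 FPKM in WT-Suc and 13.4, 18.5 and 4.65 FPKM in WT (log2FC -2.34 ± 0.44, adjusted p = 0.0294). In both genes WT replicate 3 was the lowest WT library. These were the only 2 of 14 synthesis genes called, and *LOX2*, *AOS* and *AOC1* had log2FC values of -0.18, -0.81 and -0.89 that did not pass. Of 23 signalling and turnover genes tested, 4 were called lower and 0 higher. The repressor *JAZ5* had 0.70, 0.37 and 0.20 FPKM in WT-Suc and 3.93, 7.14 and 2.01 FPKM in WT (log2FC -3.38 ± 0.65, adjusted p = 0.0317). The master regulator *MYC2* had 12.9, 4.79 and 7.14 FPKM in WT-Suc and 28.1, 21.4 and 19.8 FPKM in WT (log2FC -1.59 ± 0.28, adjusted p = 0.0235). *JAZ7* and *CYP94B3*, which hydroxylates jasmonoyl-isoleucine, fell at log2FC values of -2.12 and -3.06. Outputs of the pathway did not pass, among them *VSP1* (log2FC -1.05, adjusted p = 0.39) and *VSP2* (log2FC -0.64, adjusted p = 0.209).

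The early response to microbial patterns and damage had the most calls of any list, with 8 of 25 tested members lower, 0 higher and all 25 log2FC values below 0 (median -1.01). *PUB23* and *PUB22*, U-box ubiquitin ligases that dampen pattern-triggered immunity, both fell. *PUB23* had 12.9, 4.55 and 5.89 FPKM in WT-Suc, against 35.5, 30.0 and 34.1 FPKM in WT (log2FC -2.19 ± 0.33, adjusted p = 0.0153). *AP2C1*, a phosphatase that acts on stress MAP kinases, had 19.2, 6.96 and 12 FPKM in WT-Suc and 58.2, 37.0 and 47.5 FPKM in WT (log2FC -2.0 ± 0.30, adjusted p = 0.0153). *RBOHD*, the oxidase of the oxidative burst, had 5.69, 3.0 and 3.23 FPKM in WT-Suc and 13.5, 12 and 6.84 FPKM in WT (log2FC -1.55 ± 0.30, adjusted p = 0.0324). In *PUB23* and *AP2C1*, WT-Suc replicate 1 was the highest WT-Suc library by a clear margin. The list also lost *ATL31*, a ubiquitin ligase of the carbon to nitrogen response, the RING protein AT1G20823, the syntaxin *SYP122* and *BAP1*, an inhibitor of cell death, with log2FC values between -1.83 and -1.45. The MAP kinase *MPK3* did not pass (log2FC -0.92, adjusted p = 0.0845).

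Further immune genes outside the lists were among the fallen DEGs and are named here after their values were seen. The chitin co-receptor *LYK5* had 2.53, 1.15 and 1.78 FPKM in WT-Suc and 6.55, 5.67 and 5.01 FPKM in WT (log2FC -1.75 ± 0.28, adjusted p = 0.0173). *SOBIR1*, the adaptor kinase of receptor-like proteins, had 29.0, 16 and 17 FPKM in WT-Suc and 51.4, 42.3 and 50.6 FPKM in WT (log2FC -1.31 ± 0.25, adjusted p = 0.0287). *EXO70H7* and *EXO70E2*, subunits of the exocyst that tethers vesicles to the plasma membrane, fell at log2FC values of -1.58 and -1.31, while exocyst and syntaxin genes as a group had 3 of 39 fallen DEGs and a median log2FC of 0.09. By words of their annotation, 8 of 82 tested genes for TIR-NBS, RPW8 and RIN4 resistance proteins were fallen DEGs (9.76%, against 0.902% of all genes), although the median log2FC of the 82 was only -0.20. The RIN4-type AT2G17660 had the largest fall of them, with 5, 6 and 6 counts in WT-Suc and 76, 69 and 10 counts in WT (log2FC -3.26 ± 0.63, adjusted p = 0.0324). WT replicate 3 was far below the other WT libraries. Other groups by words of annotation, chosen after the DEGs were seen, had 0 of 372 ribosomal protein genes and 0 of 95 histone genes among the fallen DEGs. Of 1033 genes matched by kinase words, 8 were fallen DEGs (0.774%, near the 0.902% of all genes). These words also match proteins that are not kinases, such as AT1G18810, annotated as a phytochrome kinase substrate-like protein. Resistance genes lie in families of similar sequence, and expected counts split shared reads between them, so single members are less certain.

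The salicylic acid list had 0 of 10 tested members called in either direction, where 1.25% of all genes were called lower and 0.222% higher. All 10 had a log2FC below 0, with a median of -0.81, or between -1.26 and -0.33 with 1 library left out. In 5 of the 10 the WT-Suc libraries lay below all WT libraries, against 13.0% of all genes tested. *PAD4*, a lipase-like regulator of immunity, had 1.18, 0.65 and 1.01 FPKM in WT-Suc and 1.59, 1.80 and 1.51 FPKM in WT, with a log2FC of -0.87 ± 0.31 that did not pass (adjusted p = 0.152). *GRX480*, a glutaredoxin that links salicylic acid and jasmonate, had 2, 0 and 2 counts in WT-Suc and 17, 15 and 8 counts in WT (adjusted p = 0.077). Of 12 ethylene synthesis genes only *ACS6*, a stress-induced ACC synthase, was called, with 46.9, 25.5 and 60.3 FPKM in WT-Suc, against 191, 128 and 105 FPKM in WT (log2FC -1.77 ± 0.33, adjusted p = 0.0287). The other 11 had a log2FC between -2.49 and 1.54. The cold-regulated effector genes had 0 of 8 called, with 7 of the 8 below 0. Their median log2FC was -0.61, or between -0.96 and -0.07 with 1 library left out. *COR15A* and *KIN1* had log2FC values of -0.45 and -0.65. *COR413IM1*, a chloroplast membrane protein, had 35.3, 42.8 and 60.2 FPKM in WT-Suc and 18.8, 28.2 and 18.0 FPKM in WT (adjusted p = 0.067), and *ERD10*, a dehydrin, a log2FC of -1.12 (adjusted p = 0.148).

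The morning genes *CCA1* and *LHY*, which encode related repressors with a peak after dawn, both fell. *CCA1* had 45.7, 35.9 and 38 FPKM in WT-Suc, against 104, 81.1 and 77.2 FPKM in WT (log2FC -1.23 ± 0.21, adjusted p = 0.0205), and *LHY* 24.2, 20.9 and 31.3 FPKM in WT-Suc, against 66.1, 52.6 and 56.3 FPKM in WT (log2FC -1.28 ± 0.21, adjusted p = 0.0181). The third call of the 11 list members was *RVE8*, another morning factor (log2FC -0.99 ± 0.21, adjusted p = 0.0451). The later genes *TOC1*, *GI*, *LUX*, *ELF3* and *PRR5* had log2FC values between 0.37 and 0.94 and did not pass, and the median of the list was 0.36, or 0.17 without WT replicate 1. Other light and morning genes were fallen DEGs outside the list: *RVE1* (log2FC -1.67), the B-box genes *COL2* (-1.90), *BBX32* (-2.86) and *STH* (-1.2), *CDF2* (-1.33), the light-signalling bZIP factor *HYH* (-1.69), *PIF7* (-1.2) and the plastid sigma factor *SIGE* (-1.28). The hour of harvest is not given in the sources used here, and its part in these values was not tested.

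The most abundant fallen DEG was AT3G19030, with 721, 384 and 523 FPKM in WT-Suc and 1805, 1219 and 1166 FPKM in WT (log2FC -1.46 ± 0.24, adjusted p = 0.0197). *THI2.2*, a thionin and thus a small antimicrobial protein, had 84.5, 122 and 102 FPKM in WT-Suc, against 292, 279 and 283 FPKM in WT (log2FC -1.54 ± 0.22, adjusted p = 0.0153). Its WT libraries were among the tightest, at 285 ± 6.67 FPKM (SD, n = 3). *SRC2*, a cold-responsive C2-domain protein, AT4G34150, of the same class of lipid-binding domains, and AT1G65490 also lay above 100 FPKM in WT and fell at log2FC values of -1.28, -1.57 and -1.57. Genes with the smallest p included AT1G15010, with 15.7, 12.1 and 10.7 FPKM in WT-Suc and 69.0, 78.0 and 45.4 FPKM in WT (log2FC -2.42 ± 0.28, adjusted p = 0.0134), and AT2G25460, AT5G19240, *COBL8* and *TIP*. Large falls at low levels were those of the cysteine proteinase AT1G29090 (3, 7 and 2 counts in WT-Suc, 42, 34 and 95 counts in WT), the glutamine amidotransferase *GAT1_2.1* (15, 5 and 5 counts in WT-Suc, 61, 44 and 155 counts in WT) and the glycosyltransferase AT3G46690 (5, 4 and 0 counts in WT-Suc, 27, 25 and 41 counts in WT). AT3G51540 and AT3G10815 had at most 3 counts in every WT-Suc library, so that their fitted log2FC depends on the prior count. The 3 neighbouring genes of unknown function on chromosome 4, AT4G27652, AT4G27654 and AT4G27657, fell together with log2FC values of -1.74, -2.28 and -1.33, and gaps of 1149 and 862 bp lie between them.

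The 15 risen DEGs formed no common function by their annotation, and 2 of them belonged to a list. *FTM1*, a fatty acid desaturase of the hypoxia list, had 2.6, 1.58 and 1.13 FPKM in WT-Suc, against 0.24, 0.24 and 0.32 FPKM in WT (log2FC 2.62 ± 0.57, adjusted p = 0.0463). *AT4*, a non-coding RNA of the phosphate-starvation list that sequesters a microRNA, had 6.51, 10.6 and 6.43 FPKM in WT-Suc and 0.81, 1.76 and 1.26 FPKM in WT (log2FC 2.54 ± 0.56, adjusted p = 0.0471). Apart from them, 0 of 13 other hypoxia genes and 0 of 15 other phosphate genes tested were called, where 0.222% of all genes were called higher. Of all 14 hypoxia genes tested, 2 had a log2FC below 0 (median 0.35), and of all 16 phosphate genes 7 (median 0.08). In each list the WT-Suc libraries lay above all WT libraries in 4 genes, against 11.3% of all genes, and below them in 1. *IPS1*, which acts like *AT4*, was listed at 0 in all WT libraries and had 0.93, 2.36 and 3.08 FPKM in WT-Suc, with an adjusted p of 0.0979. *SAUR36*, an auxin-responsive gene, had 4.43, 10.6 and 10.5 FPKM in WT-Suc and 1.73, 1.94 and 3.15 FPKM in WT (log2FC 1.85 ± 0.41, adjusted p = 0.0471), and AT2G41230, annotated as an organ size protein, 3.62, 3.93 and 4.27 FPKM in WT-Suc and 0.87, 0.86 and 0.73 FPKM in WT (log2FC 2.18 ± 0.49, adjusted p = 0.0491). The steadiest rise was that of AT4G26670, a mitochondrial import protein, with 17.2, 13.7 and 15.2 FPKM in WT-Suc, against 5.93, 5.75 and 5.98 FPKM in WT (log2FC 1.3 ± 0.17, adjusted p = 0.0134). *LUP1*, which makes the triterpene lupeol, rose by a log2FC of 1.6 ± 0.30, and the light-regulated factor *GATA2* by 1.2 ± 0.22. The others were *BSK5* and *LYK3* (kinases), *UGT85A4* (a glycosyltransferase), *RIBA2* (riboflavin synthesis), *ALDH5F1* (succinic semialdehyde dehydrogenase of the GABA shunt), AT4G33490 (an aspartyl protease), AT1G12845 and AT1G45163, with log2FC values between 1.22 and 1.47.

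The lists of classical sugar genes had 0 or 1 call each, where 1.25% of all genes tested were called lower and 0.222% higher. At these shares a short list is likely to hold no call, so a count of 0 says little about its genes. Of 18 dark-inducible and sugar-starvation genes, 0 were called and 9 had a log2FC below 0 (median 0.01). *ASN1*, the asparagine synthetase that is high in starved tissue, had 243, 277 and 139 FPKM in WT-Suc and 113, 143 and 312 FPKM in WT, so that the groups overlapped. *DIN2*, a beta-glucosidase, had 4, 0 and 1 counts in WT-Suc and 233, 9 and 45 counts in WT (adjusted p = 0.0638), with WT libraries that differed widely. Trehalose-6-phosphate synthases and the C/S1 bZIP factors had 0 of 13 called, with *TPS1* at a log2FC of -0.64 (adjusted p = 0.124) and *bZIP2* at -0.58 (adjusted p = 0.18). Sugar transporters had 1 of 17 called: *SWEET2*, a vacuolar sugar carrier, had 13.2, 10.5 and 13.0 FPKM in WT-Suc, against 24.6, 22.4 and 21.0 FPKM in WT (log2FC -0.97 ± 0.18, adjusted p = 0.0284). *TMT2* itself did not pass, with 11.4, 7.33 and 8.61 FPKM in WT-Suc and 9.36, 7.83 and 7.04 FPKM in WT (log2FC 0.08 ± 0.24, adjusted p = 0.881). In starch metabolism 1 of 12 genes was called, *DPE1*, the plastid disproportionating enzyme of starch breakdown, with 656, 516 and 544 counts in WT-Suc and 250, 324 and 258 counts in WT (log2FC 0.96 ± 0.15, adjusted p = 0.0169). The chloroplast beta-amylase *CT-BMY* had a log2FC of -1.90 ± 0.46 (adjusted p = 0.0621). Starch synthesis and breakdown genes stand together in this list (median log2FC -0.15), and no synthesis gene of it was called.

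Anthocyanin and flavonoid genes, which sugar is known to switch on, all had a log2FC below 0 here (10 of 10 tested, median -1.47), and 0 passed. *TT19*, the glutathione transferase of anthocyanin transport, had 2.02, 1.2 and 2.14 FPKM in WT-Suc and 10.8, 6.39 and 3.82 FPKM in WT (adjusted p = 0.145), and *F3H* 13.6, 13.2 and 14.5 FPKM in WT-Suc and 30.2, 26.9 and 21.7 FPKM in WT (adjusted p = 0.147). The WT-Suc libraries lay below all WT libraries in 8 of the 10 genes, against 13.0% of all genes tested. The median of the list was -0.89 without WT replicate 1. Photosynthesis genes had 0 of 17 called with log2FC values between -0.49 and 0.13, *LHCB2.1* and *LHCB2.2* being at -0.34 and -0.36. Cell division genes had 0 of 13 called with log2FC values between -0.50 and 0.05. With 1.25% of all genes called lower and 0.222% higher, a list of this length is likely to hold no call. As in all values of whole seedling shoots, fewer cells of a type and less RNA per cell cannot be told apart.

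Promoters were searched for 4 motifs in a window from 250 bases before to 50 bases after each gene start of the RefSeq annotation (TAIR10.1), on both strands. CGCGTT, the core of the rapid stress response element, was found in 21 of 167 fallen DEGs (12.6%), against 3.9% of the 18505 genes with a window and 1 of 15 risen DEGs. The W-box, searched as TTGACC or TTGACT, was found in 47.3% of fallen DEGs, against 32.4% of all genes, and the G-box CACGTG in 16.8% against 9.0%. The GCC-box GCCGCC was found in 5.4% of fallen DEGs, against 2.7% of all genes. These are matches of letters and no evidence of binding, and the matches may overlap each other. The sequences below are the 250 bases before the start, for the 5 named genes with the largest falls among those that hold CGCGTT in these bases, shown so that the position of the element can be read. They run 5′ to 3′ on the strand of the gene, and capitals mark CGCGTT or its reverse complement AACGCG. *LOX4* lies on the plus strand (chr1:27308263-27308512), AT1G19210 on the minus strand (chr1:6627689-6627938), AT1G15010 on the plus strand (chr1:5170931-5171180), AT2G25460 on the minus strand (chr2:10835661-10835910) and *EXO70H7* on the minus strand (chr5:24066171-24066420).
LOX4: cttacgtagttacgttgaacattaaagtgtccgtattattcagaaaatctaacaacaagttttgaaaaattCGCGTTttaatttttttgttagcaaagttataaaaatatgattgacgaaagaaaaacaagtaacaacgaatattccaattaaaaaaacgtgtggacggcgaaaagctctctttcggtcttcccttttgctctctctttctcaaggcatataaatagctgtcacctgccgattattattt
AT1G19210: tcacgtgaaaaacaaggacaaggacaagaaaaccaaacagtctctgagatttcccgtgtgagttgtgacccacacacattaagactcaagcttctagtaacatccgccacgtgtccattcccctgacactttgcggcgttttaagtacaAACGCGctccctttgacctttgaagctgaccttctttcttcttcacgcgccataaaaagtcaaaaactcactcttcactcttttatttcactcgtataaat
AT1G15010: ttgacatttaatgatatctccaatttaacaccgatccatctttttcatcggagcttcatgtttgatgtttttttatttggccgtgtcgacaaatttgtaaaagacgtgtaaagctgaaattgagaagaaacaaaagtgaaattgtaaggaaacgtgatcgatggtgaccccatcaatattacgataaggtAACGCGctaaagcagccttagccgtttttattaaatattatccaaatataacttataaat
AT2G25460: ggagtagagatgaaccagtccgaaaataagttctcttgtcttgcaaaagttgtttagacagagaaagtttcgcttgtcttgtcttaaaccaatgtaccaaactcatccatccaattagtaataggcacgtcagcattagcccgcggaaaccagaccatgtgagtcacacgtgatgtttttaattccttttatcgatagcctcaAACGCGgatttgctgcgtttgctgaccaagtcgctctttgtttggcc
EXO70H7: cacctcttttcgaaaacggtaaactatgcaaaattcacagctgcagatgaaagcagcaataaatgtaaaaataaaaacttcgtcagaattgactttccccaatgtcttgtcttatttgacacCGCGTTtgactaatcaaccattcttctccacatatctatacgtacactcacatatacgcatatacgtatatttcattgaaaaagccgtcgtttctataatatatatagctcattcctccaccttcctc
The element began 179, 101, 60, 47 and 128 bases before the start in these genes, in the order shown, so its distance from the start was not shared. *RRTF1*, *JAZ5* and *MYB15*, whose falls were larger than that of *EXO70H7*, had no CGCGTT in the window.

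The number of DEGs depended on which library was kept. Without WT-Suc replicate 1, 604 lower and 103 higher DEGs were called, and without WT-Suc replicate 3, 18 and 2. Without WT-Suc replicate 2, the library with the seed transcripts, 0 genes had an adjusted p ≤ 0.05 (2069 had an unadjusted p of at most 0.05). On the WT side, leaving out replicate 1 gave 5 lower and 1 higher DEGs, replicate 2 gave 26 and 1, and replicate 3 gave 273 and 33. Among the lists, members called by adjusted p alone ran between 0 and 17 for AP2/ERF over the 6 fits. They ran between 0 and 12 for the early pattern response and 0 and 7 for WRKY factors. Each list had 0 without WT-Suc replicate 2. The fallen DEGs were chosen by fold and adjusted p with all 6 libraries kept, so the steadiness of their median is in part set by that choice. The median log2FC of the 167 fallen DEGs was -1.92, -1.52 and -1.66 without WT-Suc replicate 1, 2 or 3, and -1.54, -1.68 and -1.80 without WT replicate 1, 2 or 3. The direction of the 182 DEGs could not turn in these fits, since their groups did not overlap. None was called in all 6, since the fit without WT-Suc replicate 2 calls none. *RRTF1*, *TIP*, AT1G15010 and AT2G25460 were DEGs, by adjusted p and fold, in the other 5 fits. Of the 182, 28 were DEGs in 1 fit and 121 in 2, where a gene could also be lost by the fold limit alone. *LOX4*, *HSFC1*, *COBL8*, AT5G19240, AT3G46690 and the risen AT4G26670 were DEGs in 4 fits.

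**Figure D5:**
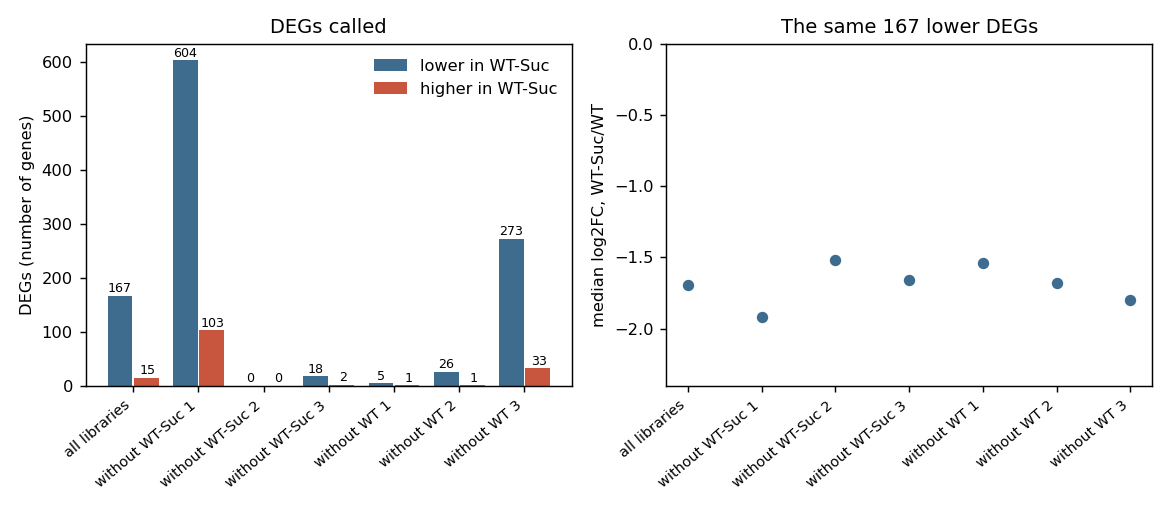
Left, number of DEGs lower (blue) and higher (red) in WT-Suc with all libraries and with 1 library left out (x axis), between 0 and 604 for the lower ones. Right, median log2FC (WT-Suc/WT) of the same 167 lower DEGs in each fit, between -1.92 and -1.52.

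The same medium change was set beside the mutant. The contrast *tmt2-L-Suc*/*tmt2-S* shares no library with WT-Suc/WT but differs by 2 days of age and by developmental state as well as by sucrose. There, 94 of the 167 DEGs that fell in the WT were also called lower (56.3%, against 25.7% of all genes). Another 8 were called higher, for which the share of all genes is not given here. The median log2FC of the 167 was -0.96 there (0.01 for all genes), and 141 had a log2FC below 0, against 49.3% of all genes. The difference between the genotypes was tested by the interaction (adjusted p ≤ 0.05 for 34.6% of all genes), which passed for 80 of the 167 (47.9%). The interaction contains the WT contrast that chose these genes, and genotype, age and the arrested development of *tmt2-S* cannot be told apart in it. *ZAT10*, *ZAT12*, *PUB22*, *SYP122*, *BAP1*, *CCA1* and *LHY* were lower with sucrose in both genotypes, with log2FC values of -1.69, -1.43, -1.59, -1.45, -1.66, -1.23 and -1.28 in the WT and -1.46, -1.39, -1.63, -1.48, -1.65, -1.54 and -1.22 in *tmt2*. *RRTF1*, *MYB15* and *MYC2* had log2FC values of -0.08, 0.01 and 0.01 in *tmt2*, and their interaction passed (adjusted p = 0.00107, 0.00227 and 0.00727).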

How the data were processed

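Above-ground tissue RNA was sequenced by the authors, who aligned reads to the TAIR10.1 reference with Bowtie2 and quantified them with RSEM; tool versions are not given in the sources used here. The deposited expected counts are unscaled and were rounded to whole numbers for the tests. The deposited FPKM values (scaled to transcript length and library size), made by the authors with RSEM, are printed as levels. The authors' group averages were not used.

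The 4 groups of 3 libraries were taken from the labels. Of 22953 genes, 18506 passed edgeR's filterByExpr. Counts were scaled by TMM and fitted in all 12 libraries with edgeR 4.0.16 in R 4.3.3 (quasi-likelihood test, Benjamini-Hochberg adjustment). SE is |log2FC| divided by the square root of F. The script was tested on simulated data. Totals of 20187961 to 21370053 counts per library limit precision for low genes, and 3 libraries a group limit it for all. Strand use in counting is not given in the sources used here, so overlapping genes are uncertain. Replicates within WT-Suc and within WT differed by more than sampling noise (chi-square per degree of freedom 11.3 to 52.6).

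The members and lists were chosen with earlier results of these data known. Named were all risen DEGs, the 10 largest falls, the 10 smallest p values and the 5 highest FPKM in WT among fallen DEGs, and from each list its DEGs (at most 8) or, without any, its 2 members with the smallest p. Other genes in the text were chosen after their values were seen. Alternatives used limma 3.58.1, DESeq2 1.42.0, other scalings, filters, fits and left-out libraries. Motifs and sequences came from RefSeq (TAIR10.1).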

Additional observations from a re-analysis of the deposited data

Results flagged for a closer look

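For 52 of the 90 named genes the effect of sucrose in *tmt2* (*tmt2-L-Suc*/*tmt2-S*) differed from that in the WT (WT-Suc/WT) by edgeR's interaction test at an adjusted p ≤ 0.05, against 34.6% of all genes tested. The values below are the log2 effect in *tmt2* minus that in the WT. The *tmt2-S* seedlings were 7 days old and the others 5 days by the labels, and *tmt2-S* lacks true leaves, so genotype, age and developmental state cannot be told apart, and most of these genes were chosen by the WT effect that enters the difference.

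Among genes that fell in WT-Suc, the difference was above 0 for the transcription factors *RRTF1* (3.01), AT1G22810 (3.98), AT1G19210 (2.96), *ERF11* (2.01), *WRKY46* (2.78), *MYB15* (3.67), *AZF2* (1.36), *TIP* (1.12), *NAC062* (1.19) and *HSFC1* (3.45), for the jasmonate genes *LOX4* (3.48), *LOX3* (3.04), *JAZ5* (4.03) and *MYC2* (1.6), for the calcium and defence genes AT3G01830 (3.07), *CML37* (1.48), *AP2C1* (1.73), AT1G20823 (1.58), *RBOHD* (1.43), AT2G17660 (3.60), *EXO70H7* (1.19) and *THI2.2* (1.77) and for *COBL8* (1.94), AT5G19240 (1.54) and AT3G19030 (1.24). It was below 0 for *WRKY45* (-5.86), *RAP2.6L* (-2.38), *GAT1_2.1* (-5.12) and AT3G46690 (-3.60).

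Among genes that rose in WT-Suc, it was above 0 for *FTM1* (4.57), *AT4* (2.33), *LUP1* (3.08), AT4G26670 (0.69) and *GATA2* (1.16) and below 0 for AT2G41230 (-1.81), *SAUR36* (-4.17), *RIBA2* (-0.99) and *ALDH5F1* (-1.41). *SAUR36* was higher with sucrose in the WT (log2FC 1.85) and lower in *tmt2* (-2.32). Among named genes that were no DEG in the WT, the values were above 0 for *COR413IM1* (1.38), *ERD10* (1.80), *TPS1* (2.1), *SWEET17* (2.24), *DPE1* (0.96), *TT19* (3.9), *LHCB2.2* (1.51), *LHCB2.1* (1.3), *CDKB1;1* (2.39) and *MCM5* (0.91), and below 0 for *PAD4* (-2.57), *SWEET2* (-1.74), *HSP70* (-2.92) and *HSP17.6A* (-4.43). *LHCB2.1* and *LHCB2.2* are near-identical copies whose shared reads were split by estimation.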

How the results depend on the processing

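The number of calls moved widely with the processing. Against 182 DEGs (167 lower, 15 higher) and 272 genes at an adjusted p ≤ 0.05, DESeq2's Wald test gave 519 DEGs (468 lower, 51 higher) and 1161 genes, and voom with sample quality weights 1118 DEGs (948 lower, 170 higher) and 5210 genes. A fit of the 6 WT-Suc and WT libraries gave 92 DEGs (83 lower, 9 higher) and 133 genes, and limma on log2(FPKM + 1) 67 DEGs (62 lower, 5 higher) and 121 genes. edgeR's glmTreat against a log2FC of 1.2 gave 0 lower and 0 higher genes, with 311 at an unadjusted p of at most 0.05. At |log2FC| ≥ 1 there were 194 lower and 24 higher DEGs. With the replicate block, 120 DEGs (114 lower, 6 higher) and 153 genes were called. Same-numbered libraries deviated from their group means with correlations of 0.15, -0.03 and -0.10, and the other pairs with correlations between -0.19 and 0.23. With 3 libraries a group, these values cannot decide whether the numbers pair the libraries. With 1 library, or 1 replicate number, left out, there were between 0 and 707 DEGs (0 to 604 lower, 0 to 103 higher) and between 0 and 1445 genes at an adjusted p ≤ 0.05; the count of 0 came without WT-Suc replicate 2 and without replicate 2 of both groups. The cause of these differences was not tested. Other scalings, a robust fit and other filters on low counts kept the number of DEGs between 153 and 221. With 3 libraries a group, small changes in genes of low counts were not detectable at this depth.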
